A study of Homo sapiens with 6 samples.

Results

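BMF and 9 other genes of the BCL2 family (BCL2, BCL2L1, BCL2L11, MCL1, BAX, BAK1, BBC3, PMAIP1 and BID) were examined on gene expression arrays of MDA-MB-231, a human breast cancer cell line that is triple negative and mesenchymal-like. Their probes were taken as those that the array files assign to a RefSeq transcript of one of these genes. This gave 16 probes for 10 genes, out of 50599 probes on the array, and 14 of the 16, with at least 1 for every gene, were bright enough to be tested among 18464 tested probes. The cells were transfected with a precursor of hsa-miR-205-5p, a precursor of hsa-miR-214-3p or a scrambled negative control precursor (SCR), and RNA was collected after 72 h. All cells came from the same line and medium and went through the same reverse transfection, so every group carried a transfected small RNA. Each group had 2 arrays. The labels do not say whether the replicates were separate cultures, so the p-values measure the spread between these arrays, which may be technical.

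BCL2 proteins decide whether the outer mitochondrial membrane stays closed. BCL2, BCL2L1 and MCL1 are the guardians that keep it closed, BAX and BAK1 are the effectors that open it and release cytochrome c, and the BH3-only proteins BMF, BBC3, PMAIP1, BCL2L11 and BID carry death signals by occupying the guardians or, for some of them, by activating the effectors directly. BMF is known for its tie to the cytoskeleton through dynein light chain and for its part in the death of epithelial cells that lose their attachment.

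A microRNA pairs with its targets mainly through its seed, bases 2 to 8 from the 5′ end. The mature sequences of both transfected microRNAs are shown because they define the treatments, with the seed in capitals (RefSeq, GRCh38.p14, chr1:209432166-209432187 on the plus strand for hsa-miR-205-5p and chr1:172138816-172138837 on the minus strand for hsa-miR-214-3p).
hsa-miR-205-5p: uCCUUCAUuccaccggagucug
hsa-miR-214-3p: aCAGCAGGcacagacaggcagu
The seeds differ. Among 2370 mature names in the RefSeq table, hsa-miR-3619-5p and hsa-miR-761 have the same seed as hsa-miR-214-3p, and 0 others have that of hsa-miR-205-5p. The primer pair that the study lists for BMF is shown because it is given for the transcript NM_001003940. The files assign both BMF probes on the array to that transcript.
BMF forward primer: ttccctccttcccaatcgag
BMF reverse primer: catctctcctgggtgactcc

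The values below are normalized log2 signals, in which each array's 75th percentile is 0 and 1 unit is a doubling. A call, lower or higher, needed at least a 2-fold change with a limma p below 0.05 after Benjamini-Hochberg adjustment over all 18464 tested probes. Levels are compared between arrays for the same probe and never between probes. All 6 arrays lay on 1 slide, and the arrays of a group lay side by side, so position and group cannot be told apart. The 75th percentile of signal ranged from 35.1 to 58.0 over the arrays, and between 35.4% and 42.2% of spots were well above background. All 5 markers named for this line as present (VIM, CD44, MSN, CAV1 and AXL) were well above background on all 6 arrays, and the hormone receptor genes ESR1 and PGR were so on 0. Of the 5 markers named as absent or low, CDH1, EPCAM and GATA3 were well above background on all 6 arrays. CDH1, which encodes E-cadherin, lay between 0.64 and 0.87 with hsa-miR-205-5p, between −1.33 and −1.09 in SCR and between −1.47 and −1.30 with hsa-miR-214-3p. EPCAM lay between 2.77 and 3.21, between 0.35 and 0.83 and between 0.53 and 0.80 in the same order. The epithelial markers CDH1 and EPCAM thus lay higher on the arrays on which BMF lay lowest, and their part in the results below was not tested. The markers named as present moved in either direction with hsa-miR-205-5p. AXL lay between 8.04 and 8.11, above SCR (7.76 to 7.82), and VIM between 7.49 and 7.52, below SCR (7.58 to 7.64). CD44 lay above SCR on each probe, CAV1 below on each probe, and MSN overlapped SCR. In bulk RNA, fewer cells of a kind and less RNA per cell cannot be told apart.

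With hsa-miR-205-5p, BMF was called lower and BBC3 was called higher than in SCR, and the other 12 tested probes were not called. That is 1 of 14 probes lower, where 8.06% of all tested probes were called lower, and 1 of 14 higher, where 4.14% were called higher. With hsa-miR-214-3p, BBC3 was called higher, and 0 probes were called lower, which was also the count at an unadjusted p with the 2-fold limit by limma and by the methods' t-test. Over all tested probes, 0.986% were called higher and 1.68% lower with hsa-miR-214-3p. The median log2 change of the 14 probes was 0.02 with hsa-miR-205-5p, beside 0.05 over all tested probes, and 0.21 with hsa-miR-214-3p, beside −0.01. The precursor arrays lay entirely on 1 side of the SCR arrays in 9 of the 14 probes in either comparison, beside 62.3% of all tested probes with hsa-miR-205-5p and 55.4% with hsa-miR-214-3p. Both comparisons used the same SCR arrays.

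**Figure D1:**
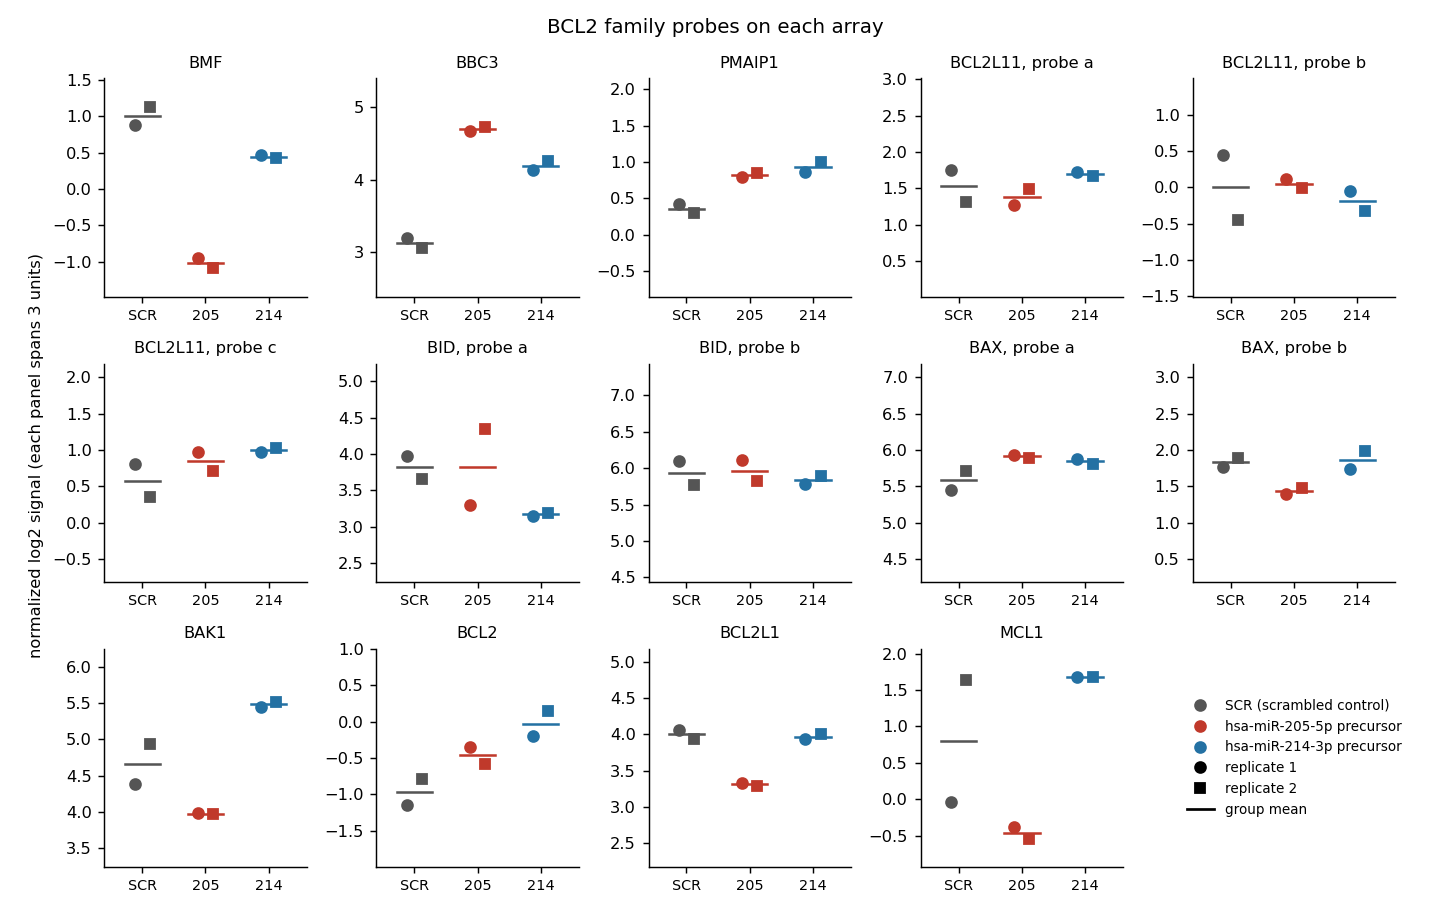
Normalized log2 signal of each of the 14 tested probes on each of the 6 arrays, with 1 panel per probe; circles and squares are replicates 1 and 2, lines are group means, and the vertical axis of every panel spans the same range. BMF is lowest on both hsa-miR-205-5p arrays (−0.95 and −1.08), BBC3 is lowest on both SCR arrays (3.20 and 3.06), and the SCR arrays of MCL1 lie far apart (−0.04 and 1.65).

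BMF fell with hsa-miR-205-5p. Its bright probe (A_23_P379649) had normalized log2 signals of 0.88 and 1.12 on SCR replicates 1 and 2, −0.95 and −1.08 with hsa-miR-205-5p, and 0.46 and 0.43 with hsa-miR-214-3p. All 6 arrays fell into 3 separate ranges, with SCR highest and hsa-miR-205-5p lowest. The log2 fold change with hsa-miR-205-5p was −2.01 (standard error, SE, 0.17; limma adjusted p = 0.00799), or 4.04-fold lower, with a 95% interval of −2.44 to −1.59. As linear intensities before scaling, the probe read 92.4 and 126.3 in SCR and 21.6 and 16.6 with hsa-miR-205-5p, where the dimmest probes well above background on those last arrays read 12.03 and 12.97. The signal that remained with hsa-miR-205-5p was therefore measured, but near the lower limit of detection. With a normexp background correction, which pulls dim probes together, the log2 fold change was −0.81 (adjusted p = 0.00915) and the 2-fold limit was not reached. Without hsa-miR-205-5p replicate 2 it was −1.95 with an adjusted p of 0.0558. The study had selected BMF from these same arrays for follow-up, so its fall here is not independent evidence.

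With hsa-miR-214-3p, BMF lay −0.55 from SCR on the log2 scale (limma adjusted p = 0.142), with a 95% interval of −0.98 to −0.13, and was not called. The direct comparison separated the precursors. BMF was 2.75-fold lower with hsa-miR-205-5p than with hsa-miR-214-3p (log2 difference −1.46, SE 0.17, limma adjusted p = 0.0052). Under normexp this difference was −0.48 (adjusted p = 0.0306), which is under 2-fold and was not called. The other BMF probe (A_33_P3346801) was not well above background on any array, with signals from −2.89 to −2.01, and carries no measured difference.

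BBC3, which encodes the BH3-only protein PUMA and is a target of p53, rose with both precursors. MDA-MB-231 cells carry mutant p53. The BBC3 probe had normalized log2 signals of 3.20 and 3.06 in SCR, 4.66 and 4.72 with hsa-miR-205-5p and 4.13 and 4.25 with hsa-miR-214-3p. The 3 groups did not overlap, and SCR was the lowest. The log2 fold change was 1.56 with hsa-miR-205-5p (SE 0.16, limma adjusted p = 0.00829), or 2.96-fold, and 1.06 with hsa-miR-214-3p (SE 0.16, adjusted p = 0.0405), or 2.09-fold. The precursors differed by 0.50 (95% interval 0.11 to 0.90, adjusted p = 0.0604), which did not pass the threshold. The call with hsa-miR-214-3p sat at the threshold. It was lost when only the 4 arrays compared were fitted (adjusted p = 0.0941), with the replicate number as a block (0.0903) and without any 1 of the 6 arrays, where the log2 fold change ranged from 0.99 to 1.13 and the adjusted p from 0.0303 to 0.331. The adjusted p of 0.0303 belongs to the value of 0.99, which is under 2-fold. The call with hsa-miR-205-5p was lost without hsa-miR-205-5p replicate 2 (adjusted p = 0.0579).

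PMAIP1, which encodes NOXA, a BH3-only protein that binds MCL1, had signals of 0.42 and 0.30 in SCR, 0.79 and 0.85 with hsa-miR-205-5p and 0.87 and 1.00 with hsa-miR-214-3p. Both precursors lay above both SCR arrays, by 0.46 (95% interval 0.07 to 0.85) and 0.57 (0.18 to 0.96) on the log2 scale. Neither difference passed the adjustment (adjusted p = 0.0952 and 0.116 from limma). Their size depended on the processing. The difference with hsa-miR-205-5p was 0.17 under normexp and as low as 0.07 over the other settings, and that with hsa-miR-214-3p was as low as 0.35. The precursors differed from each other by −0.11 (95% interval −0.50 to 0.28).

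BCL2L11, which encodes BIM, a BH3-only protein able to activate BAX directly, was read by 3 probes, called a, b and c here. Probe a had 1.76 and 1.32 in SCR, 1.27 and 1.49 with hsa-miR-205-5p and 1.73 and 1.67 with hsa-miR-214-3p. Probe b had 0.44 and −0.45 in SCR, 0.12 and −0.01 with hsa-miR-205-5p and −0.05 and −0.33 with hsa-miR-214-3p. Probe c had 0.80 and 0.35 in SCR, 0.98 and 0.71 with hsa-miR-205-5p and 0.97 and 1.03 with hsa-miR-214-3p. The SCR replicates of probe b spanned all the precursor arrays. Over the 3 probes, the log2 differences from SCR ran from −0.16 to 0.27 with hsa-miR-205-5p and from −0.19 to 0.43 with hsa-miR-214-3p, with no probe called and the lowest adjusted p at 0.308 (limma). The intervals reach as far as −0.99 and 0.97, so changes of up to almost 2-fold could not be told from none.

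BID, the BH3-only protein that caspase 8 cleaves to link death receptors to mitochondria, was read by 2 probes that behaved differently. Probe a had 3.98 and 3.66 in SCR, 3.30 and 4.34 with hsa-miR-205-5p and 3.15 and 3.20 with hsa-miR-214-3p. The hsa-miR-205-5p replicates of probe a differed by 1.04, which was more than in 94.8% of tested probes. Probe b stayed between 5.77 and 6.11 on all 6 arrays. Neither probe was called, and the largest difference from SCR was −0.65 for probe a with hsa-miR-214-3p (limma adjusted p = 0.348).

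**Figure D2:**
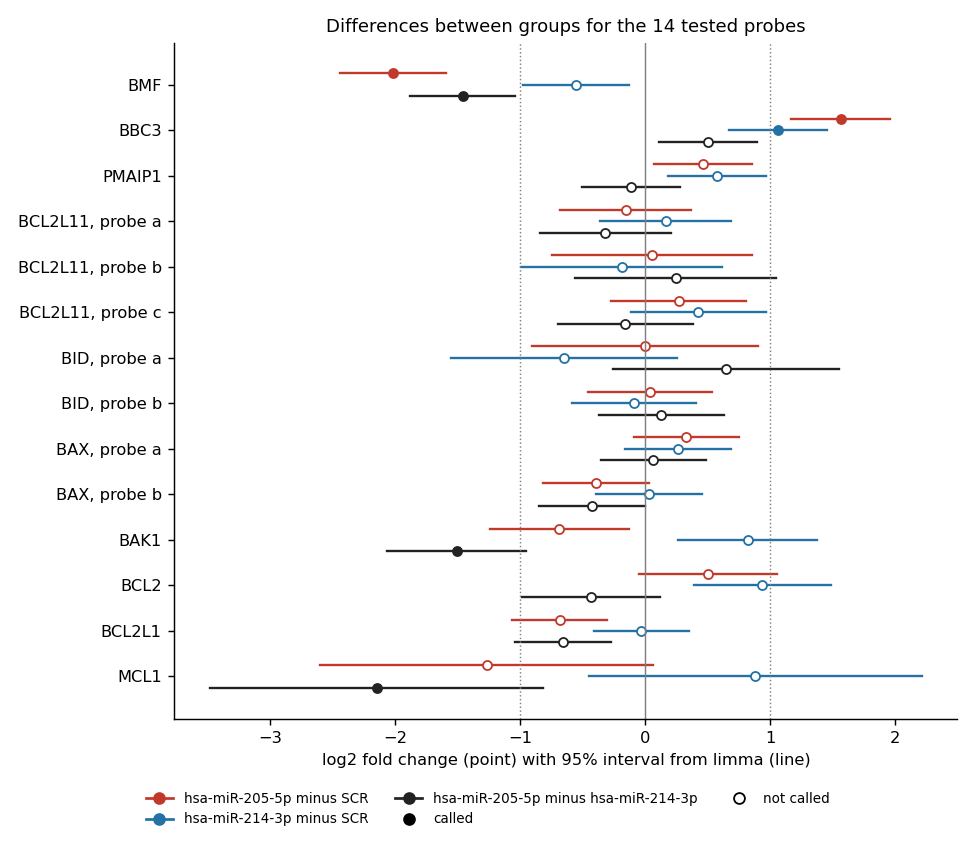
Log2 fold change of each of the 14 tested probes in the 3 comparisons (horizontal axis), with 95% intervals from limma as lines; filled points are called, and dotted lines mark 2-fold. BMF and BBC3 are the filled points against SCR, and BMF, BAK1 and MCL1 are filled between the precursors.

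The effectors differed between the precursors through BAK1. Its probe had normalized log2 signals of 4.39 and 4.94 in SCR, 3.98 and 3.97 with hsa-miR-205-5p and 5.45 and 5.52 with hsa-miR-214-3p. The hsa-miR-205-5p arrays lay below both SCR arrays and the hsa-miR-214-3p arrays above both. Against SCR, neither difference passed the threshold (log2 fold change −0.69, adjusted p = 0.0853, and 0.82, adjusted p = 0.114, limma). Between the precursors BAK1 was 2.84-fold lower with hsa-miR-205-5p (log2 difference −1.51, SE 0.22, limma adjusted p = 0.00876). Without hsa-miR-214-3p replicate 1 or 2 that adjusted p was 0.0635 or 0.0744. Without 1 array, the difference of hsa-miR-214-3p from SCR ran from 0.55 to 1.09, with the highest value when SCR replicate 2 was left out.

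BAX was read by 2 probes assigned to different transcripts. Probe a (NM_138764) had 5.45 and 5.72 in SCR, 5.93 and 5.89 with hsa-miR-205-5p and 5.88 and 5.81 with hsa-miR-214-3p. Probe b (NM_004324) had 1.77 and 1.88 in SCR, 1.39 and 1.47 with hsa-miR-205-5p and 1.73 and 1.98 with hsa-miR-214-3p. The hsa-miR-205-5p arrays lay above both SCR arrays for probe a and below both for probe b, with log2 differences of 0.33 (95% interval −0.09 to 0.75) for probe a and −0.39 (−0.82 to 0.03) for probe b. Neither difference passed the threshold (adjusted p = 0.214 and 0.156 from limma). Probe a lay below SCR, at −0.06, when arrays were scaled to their median.

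Of the guardians, BCL2 was dim. Its tested probe (NM_000657) had −1.14 and −0.79 in SCR, −0.35 and −0.58 with hsa-miR-205-5p and −0.20 and 0.15 with hsa-miR-214-3p. All precursor arrays lay above both SCR arrays, by 0.50 (limma adjusted p = 0.162) and 0.94 (adjusted p = 0.09) on the log2 scale, and neither was called. Without 1 array the second difference ran from 0.76 to 1.11. Over the other settings of processing and test, the differences were as low as 0.11 with hsa-miR-205-5p and 0.45 with hsa-miR-214-3p. Before scaling, the probe read 22.8 and 33.5 in SCR and 32.8 and 23.5 with hsa-miR-205-5p. The other BCL2 probe (NM_000633), with 10 spots per array, was not well above background on any array.

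BCL2L1, which encodes BCL-XL, had 4.06 and 3.93 in SCR, 3.33 and 3.29 with hsa-miR-205-5p and 3.93 and 4.0 with hsa-miR-214-3p. The hsa-miR-205-5p arrays lay apart from the other 4, which overlapped. The log2 fold change with hsa-miR-205-5p was −0.685 (SE 0.15, limma adjusted p = 0.0356), or 1.61-fold lower. It passed the adjusted p but not the 2-fold limit, as did the difference between the precursors (−0.65, adjusted p = 0.0283). Both lost the adjusted p without either replicate of either precursor, with values of up to 0.15 and 0.185, and in the authors' table the difference between the precursors was −0.32 (adjusted p = 0.203). By adjusted p alone, 11.1% of all tested probes were lower with hsa-miR-205-5p than in SCR and 16% lower than with hsa-miR-214-3p. With hsa-miR-214-3p the difference from SCR was −0.03 (95% interval −0.41 to 0.35). The probe is printed 10 times on each array, and after outlier spots were left out 8 to 10 spots remained. Their standard deviation within an array was 0.06 to 0.16, and the highest spot on either hsa-miR-205-5p array, at 3.49, lay below the lowest spot on any other array, at 3.76. These spots share their RNA and are not replicates of the condition. When arrays were scaled to their median, which moved the median of all tested probes to −0.34 with hsa-miR-205-5p, BCL2L1 and BAK1 were called lower as well, at −1.07 and −1.08.

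**Figure D3:**
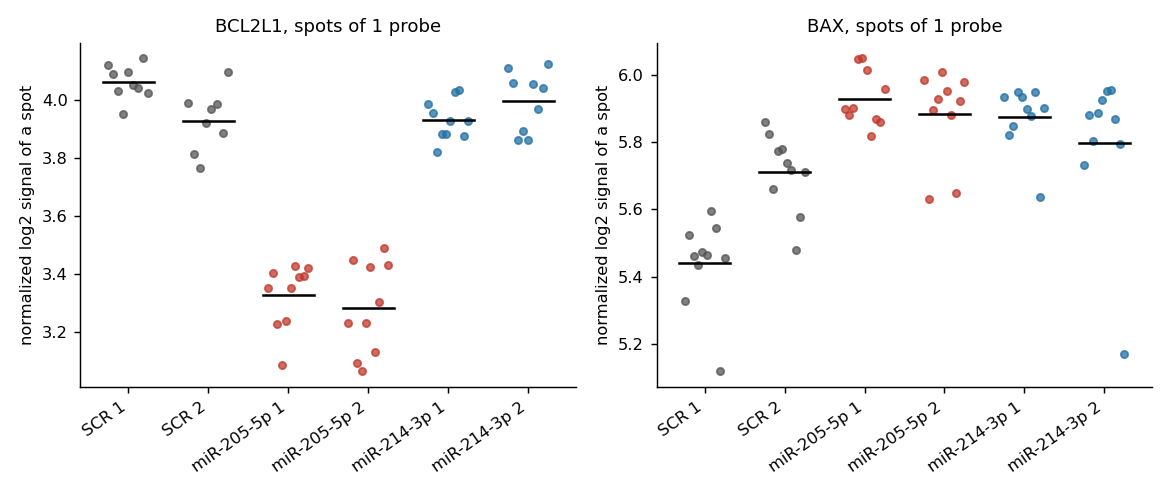
Normalized log2 signal of every spot of the BCL2L1 probe and of BAX probe a on each array, without outlier spots, with the mean as a line. All BCL2L1 spots with hsa-miR-205-5p lie below 3.5 and all others above 3.7, while the BAX spots of SCR replicate 2 overlap those of the precursor arrays.

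MCL1, a guardian with a short-lived protein, was set apart by its control arrays. The probe had −0.04 and 1.65 on SCR replicates 1 and 2, −0.38 and −0.55 with hsa-miR-205-5p, and 1.69 and 1.68 with hsa-miR-214-3p. SCR replicate 1 lay near the hsa-miR-205-5p arrays and SCR replicate 2 near the hsa-miR-214-3p arrays, and the SCR replicates differed by more than in 97.1% of tested probes. Against SCR the log2 fold changes were −1.27 (95% interval −2.60 to 0.07, limma adjusted p = 0.149) and 0.88 (−0.45 to 2.21, adjusted p = 0.384). Without SCR replicate 1 the difference with hsa-miR-205-5p was −2.11 (adjusted p = 0.00716), and without SCR replicate 2 the difference with hsa-miR-214-3p was 1.72 (adjusted p = 0.0233), so the calls against SCR turn on which SCR array is used. Between the precursors, whose replicates were close, MCL1 was 4.43-fold lower with hsa-miR-205-5p (log2 difference −2.15, SE 0.53, limma adjusted p = 0.033).

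Set directly against each other, the precursors differed in 3 of the 14 probes, BMF, BAK1 and MCL1, all lower with hsa-miR-205-5p. Of all tested probes, 11.5% were called lower in this comparison and 8.37% higher. The count of member probes higher with hsa-miR-205-5p was 0, also at an unadjusted p with the 2-fold limit by limma and by the methods' t-test. In 12 of the 14 probes the arrays of both groups did not overlap, where 78.3% of all tested probes did not. The median difference of the 14 probes was −0.24, beside 0.09 over all tested probes. Without either hsa-miR-214-3p replicate, 0 of the 3 were called, with adjusted p of 0.0539 and 0.0584 for BMF and 0.133 and 0.137 for MCL1. Under normexp the calls of BMF and MCL1 were lost, BMF on size and MCL1, at −1.16, on its adjusted p (0.0555), and that of BAK1 held. MCL1 was also lost without either hsa-miR-205-5p replicate (0.101 and 0.116) and without the filter on dim probes (0.104), and without hsa-miR-205-5p replicate 1, BID probe a was called higher (1.17, adjusted p = 0.0476).

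The genes with the profile most like that of BMF over the 6 arrays were CREBZF, NKIRAS2, CHST3, C9orf40 and KIF3C. Likeness was the root mean square difference between probes after each was centred on its own mean, and it was 0.0747 to 0.0946 for NKIRAS2, CHST3 and C9orf40, which were well above background on all 6 arrays, and 0.935 in the median of 15385 named probes of 11974 genes. NKIRAS2, an inhibitor of NF-kappaB signaling, had 3.87 and 4.11 in SCR, 2.05 and 2.09 with hsa-miR-205-5p and 3.47 and 3.56 with hsa-miR-214-3p. CHST3, a chondroitin sulfotransferase, had 0.77 and 1.23, −0.87 and −1.23, and 0.43 and 0.37 in the same order. C9orf40 had 2.32 and 2.30, 0.34 and 0.37, and 1.82 and 1.74. The pattern shared with BMF was a step from SCR to hsa-miR-214-3p that was smaller than the step to hsa-miR-205-5p. NKIRAS2, CHST3 and C9orf40 had log2 fold changes with hsa-miR-205-5p of −1.92, −2.05 and −1.96. Under normexp that of CHST3 was −0.72, under 2-fold, and without hsa-miR-205-5p replicate 2 the adjusted p of NKIRAS2, CHST3 and C9orf40 was 0.0558, 0.0584 and 0.0558. The probes of CREBZF, a leucine zipper protein, and KIF3C, a kinesin, were not well above background on the arrays of the hsa-miR-205-5p group, and their levels there were lower than in SCR by at least 1.62-fold and 1.84-fold on the processed signal. Their distance from BMF on those arrays was therefore not measured, and their place among the nearest genes rests on signals below background. Under normexp their log2 changes were −0.24 and −0.19 (adjusted p = 0.176 and 0.275), short of those bounds, and neither was called. Such a bound sets the SCR mean against, per array, the higher of the probe's own signal and the dimmest signal well above background. These genes were chosen for this pattern, so the values are a description.

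**Figure D4:**
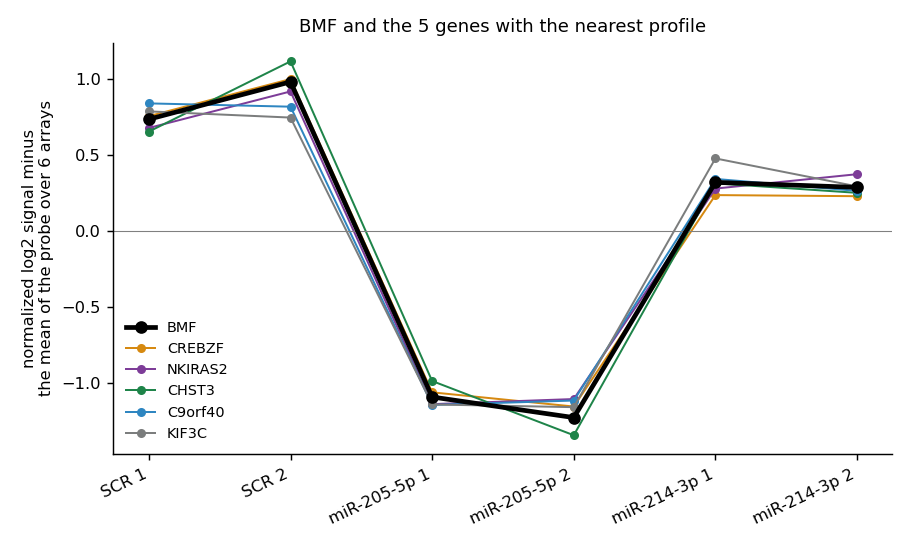
Normalized log2 signal of the BMF probe and of the 5 probes nearest to it, each minus its own mean over the 6 arrays. BMF runs from 0.98 on SCR replicate 2 to −1.23 on hsa-miR-205-5p replicate 2, and the other lines follow it, with CREBZF and KIF3C not well above background on the hsa-miR-205-5p arrays.

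Around the 10 genes, 5 lists of the cell death pathway held 83 tested probes. With hsa-miR-205-5p, 4 were called lower (4.82%) and 4 higher (4.82%), beside 8.06% and 4.14% of all tested probes, and the median log2 fold change was 0.09. With hsa-miR-214-3p, 2 were called lower (2.41%), beside 1.68%, and 0 higher, beside 0.986%, and the median was 0.02. At an unadjusted p with the 2-fold limit, 3 were lower and 2 higher with hsa-miR-214-3p by limma, and 2 lower and 1 higher by the methods' t-test. Between the precursors, 8 were lower (9.64%) and 9 higher (10.8%) with hsa-miR-205-5p, beside 11.5% and 8.37% of all tested probes. Of the lower ones, DDIT3 and 1 probe each of FOXO3, CASP2 and CFLAR were not well above background on every hsa-miR-205-5p array. Their size was therefore not measured, and the bound for CASP2, 0.88-fold, shows no fall. Of the higher ones, TNFRSF10C was not well above background on every hsa-miR-214-3p array.

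Among 13 probes of other BCL2 family genes, BIK was called with hsa-miR-205-5p and 0 with hsa-miR-214-3p. BIK encodes a BH3-only protein of the endoplasmic reticulum. It had 0.82 and 0.95 in SCR, 2.63 and 2.50 with hsa-miR-205-5p and 0.29 and 0.16 with hsa-miR-214-3p. BIK rose 3.20-fold with hsa-miR-205-5p (log2 fold change 1.68, SE 0.16, limma adjusted p = 0.00799).

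Among 23 probes of binding partners and regulators of BH3-only proteins, DDIT3 and FOXO3 were called lower with hsa-miR-205-5p and 0 probes were called with hsa-miR-214-3p. DDIT3 encodes CHOP, a stress factor that induces BH3-only genes. It had −0.24 and 0.27 in SCR, −1.16 and −2.22 with hsa-miR-205-5p and 0.93 and 0.81 with hsa-miR-214-3p, and the second hsa-miR-205-5p array was not well above background, so that 1 of the 2 values behind its mean there is only an upper limit. The fitted log2 change was −1.70 (SE 0.39, limma adjusted p = 0.0368), and under normexp it was −0.49 (adjusted p = 0.0704) and not called. FOXO3, a transcription factor of BH3-only genes, had 3 probes that disagreed. On both hsa-miR-205-5p arrays 1 of them was not well above background. Its level there was lower than in SCR by at least 1.999-fold on the processed signal, just under the 2-fold limit. The fitted change behind its call, −1.05 (limma adjusted p = 0.028), rests on those signals below background. The other FOXO3 probes lay above SCR, at 0.63 (adjusted p = 0.0384) and 0.32. Under normexp the dim probe was at −0.13 (adjusted p = 0.498), short of that bound. Its call was lost whichever of the 6 arrays was left out (−1.28 to −0.81).

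Among 20 probes of the mitochondrial pore and apoptosome, FIS1 and HTRA2 were called lower with hsa-miR-205-5p and MFN2 was called lower with hsa-miR-214-3p. FIS1, a receptor of mitochondrial fission, had 4.77 and 5.13 in SCR, 2.71 and 2.68 with hsa-miR-205-5p and 5.06 and 5.11 with hsa-miR-214-3p. It was 4.77-fold lower with hsa-miR-205-5p (log2 fold change −2.25, limma adjusted p = 0.00799). HTRA2, a protease released from mitochondria, changed by −1.17 under hsa-miR-205-5p (adjusted p = 0.0244). MFN2, a mitofusin, had 7.64 and 7.31 in SCR and 6.15 and 6.17 with hsa-miR-214-3p. That was a log2 change of −1.31 (adjusted p = 0.0369), and its other probe, which was not well above background on every array compared, was not called (adjusted p = 0.213).

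Among 16 probes of caspases and their inhibitors, CASP9, the caspase that the apoptosome activates, was called higher with hsa-miR-205-5p, and 0 probes were called with hsa-miR-214-3p. CASP9 had 1.63 and 1.80 in SCR and 2.78 and 2.90 with hsa-miR-205-5p, a log2 change of 1.13 (limma adjusted p = 0.0137). Among 11 probes of death receptors and ligands, FAS and TNFRSF10C were called higher with hsa-miR-205-5p. One FAS probe rose by 1.14 (adjusted p = 0.0325), and the other, at 0.91 (adjusted p = 0.0265), did not reach 2-fold. With the replicate block the first probe had a limma adjusted p of 0.0578 and was not called. Without 1 array its change ran from 0.82 to 1.46. TNFRSF10C, a decoy receptor of TRAIL without a death domain, had −0.14 and −0.35 in SCR, 1.17 and 1.28 with hsa-miR-205-5p and −1.62 and −1.78 with hsa-miR-214-3p. It was called in opposite directions, at 1.47 (adjusted p = 0.00925) and −1.45 (adjusted p = 0.0314), and the second hsa-miR-214-3p array was not well above background. Its value there is only an upper limit. Under normexp the changes from SCR were 0.79 and −0.40, and neither was called. The fitted difference between the precursors, 2.93 (adjusted p = 0.00383), rests in part on that limit. Without hsa-miR-205-5p replicate 2, 0 list probes were called with either precursor. With only the 4 arrays compared, the calls of FIS1, BIK and TNFRSF10C held for hsa-miR-205-5p and 0 held for hsa-miR-214-3p, and under normexp those of FIS1, HTRA2 and BIK held for the former and that of MFN2 for the latter.

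**Figure D5:**
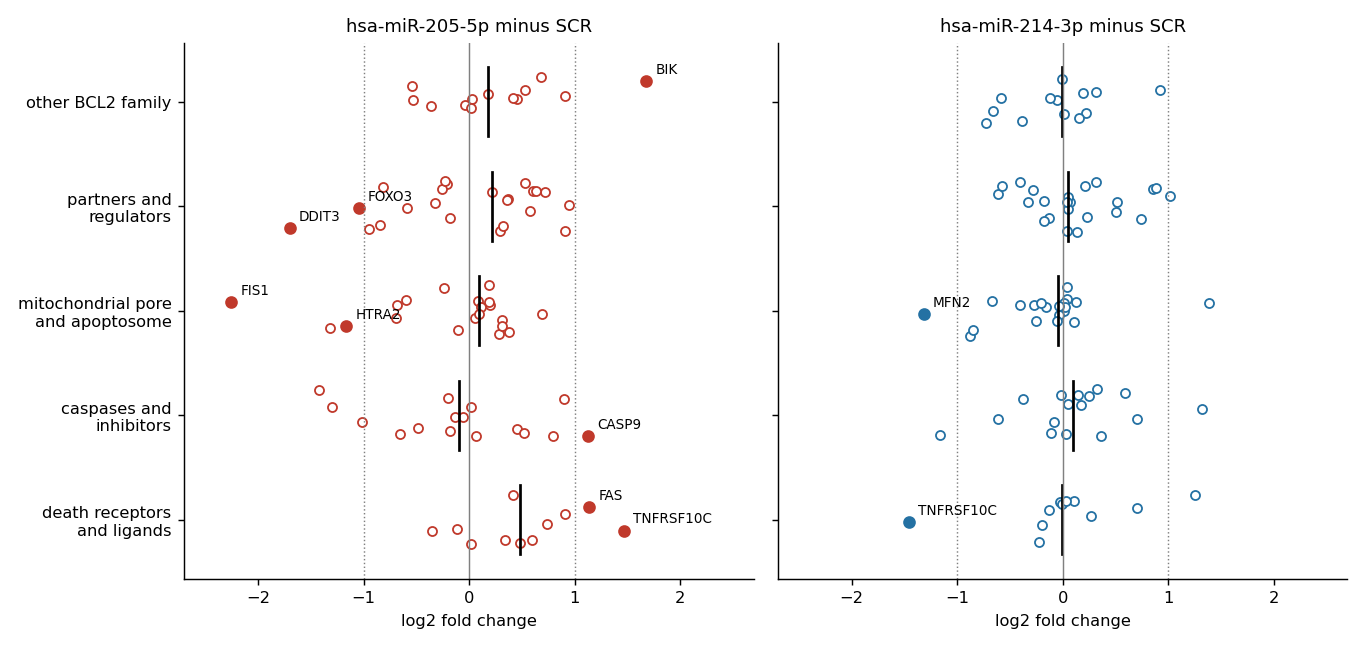
Log2 fold change of the 83 tested probes of the 5 pathway lists with each precursor against SCR, 1 row of points per list; filled points with names are called, black lines are the median of a list, and dotted lines mark 2-fold. The 8 filled points with hsa-miR-205-5p lie on both sides of 0, and the 2 with hsa-miR-214-3p lie below it.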

How the data were processed

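RNA of MDA-MB-231 cells was labeled with 1 dye and hybridized to Agilent SurePrint G3 Human GE arrays, 2 per group. The deposited scanner output, from Agilent Feature Extraction 11.0 per the submitters' processing notes, holds the processed signal of each spot, an intensity on a linear scale from which the software had subtracted background and spatial trends. A log2 table deposited by the authors lists 50739 probes. Its columns hold the same sorted values and correlate with log2 of the processed signal at 0.9968 or more. Each column's median is 3.49, so it is on a log2 scale and not centred on 0. The study's methods name GeneSpring, a limit on p with no word on adjustment, a 2-fold limit and, for statistics in general, a two-tailed t-test.

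Control and outlier spots (245 to 463 per array) were left out, spots of a probe were averaged, and each array's log2 values were set relative to their 75th percentile. A probe was tested if any group had it well above background on both of its arrays (18464), and 83.3% of them had a symbol in the RefSeq gene table (GRCh38.p14), used for names only. The 0 saturated spots needed no rule. limma 3.58.1 (lmFit and eBayes, R 4.3.3, data.table version 1.17.8) was fitted to all 6 arrays, with 3 residual and 2.47 prior degrees of freedom, and Benjamini-Hochberg adjustment over all tested probes. The number of arrays limits the precision. The fit was tested on simulated data with independent normal noise and no background floor, so that test does not bear on the calls of dim probes. Figures were drawn with matplotlib 3.10.9.

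The member genes, lists and tests were chosen with earlier results of these data known. All members are named, and of the lists every gene with a called probe against SCR. The alternatives were normexp with an offset of 50 on the median signal, quantile and median scaling, the percentile over bright probes, the authors' log2 table, no filter and a stricter one, only the 4 arrays compared, a replicate block, leave-one-out fits, limma's intensity trend with robust variance, unadjusted p, the methods' t-test and no fold limit.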

Additional observations from a re-analysis of the deposited data

How the results depend on the processing

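The counts of called member probes (1 lower and 1 higher with hsa-miR-205-5p, 0 and 1 with hsa-miR-214-3p, 3 lower and 0 higher between the precursors) did not move under quantile normalization, the percentile over bright probes, the authors' table, the trend fit, the stricter filter or unadjusted p by either test. In the comparison of hsa-miR-205-5p with SCR, member probes called lower numbered 0 under normexp and the methods' t-test after Benjamini-Hochberg, 3 under median scaling and 2 with no limit on fold change, and those called higher 0 under that t-test. With hsa-miR-214-3p, 0 member probes were called higher under normexp, median scaling, no filter, only the 4 arrays compared, the replicate block and that t-test. Between the precursors 1 was called lower under normexp, 2 with no filter and 4 with no limit on fold change. Leaving out 1 array in turn gave 0 to 2 lower and 0 to 1 higher with hsa-miR-205-5p, 0 to 0 lower and 0 to 3 higher with hsa-miR-214-3p, and 0 to 3 lower and 0 to 1 higher between the precursors, where the spread of a lone array was taken from the remaining groups. For the pathway lists (4 lower and 4 higher with hsa-miR-205-5p, 2 and 0 with hsa-miR-214-3p), the lower and higher counts with hsa-miR-205-5p were 2 and 1 under normexp, 1 and 1 with no filter, 1 and 2 with only the 4 arrays compared, and 0 and 0 under the t-test after adjustment. The lower and higher counts were 6 and 2 under median scaling and 5 and 13 with no limit on fold change, and the lower count was 5 at unadjusted p, 2 with the stricter filter and with the unadjusted t-test, and 1 with the replicate block. The lower count with hsa-miR-214-3p was 1 under normexp and the stricter filter and 0 with no filter, only the 4 arrays, the replicate block and the adjusted t-test, and the higher count was 1 with the stricter filter and the unadjusted t-test and 2 at unadjusted p, where the lower count was 3. Leaving out 1 array gave list counts of 0 to 8 lower and 0 to 6 higher with hsa-miR-205-5p and 0 to 2 lower and 0 to 6 higher with hsa-miR-214-3p. The cause of these moves was not tested. Correlations of replicate deviations between groups were low (0.1089, 0.0082 and −0.0514). They cannot show whether same-numbered arrays shared a culture or day, which the labels do not say. With the replicate block, BBC3 with hsa-miR-214-3p had an adjusted p of 0.0903, and no other member call changed.

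Of the values for single probes, 969 kept their direction and call, 120 lost a call, 9 gained one and 36 changed sign. The sign changes all concerned values that were not called. For BID probe a with hsa-miR-205-5p, the log2 fold change was −0.24 under normexp, −0.39 under median scaling, −0.0365 with the percentile over bright probes and −0.52 to 0.52 without 1 array. For BID probe b with hsa-miR-205-5p it was −0.20 under normexp, −0.12 under quantile normalization, −0.35 under median scaling, −0.12 in the authors' table and −0.12 to 0.20 without 1 array, with hsa-miR-214-3p −0.25 to 0.072 without 1 array, and between the precursors −0.054 under quantile normalization, −0.094 under median scaling, −0.056 in the authors' table and −0.014 to 0.27 without 1 array. For BCL2L11 probe b it was −0.05 under normexp, −0.34 under median scaling and −0.39 to 0.50 without 1 array with hsa-miR-205-5p, and −0.63 to 0.26 without 1 array with hsa-miR-214-3p. For BCL2L11 probe a it was −0.38 to 0.065 without 1 array with hsa-miR-205-5p, and −0.0024 under median scaling and −0.057 to 0.38 without 1 array with hsa-miR-214-3p, and for probe c −0.12 under median scaling with hsa-miR-205-5p. For BAX probe a it was −0.0599 under median scaling with hsa-miR-205-5p, −0.0215 in the authors' table with hsa-miR-214-3p, and −0.0067 under normexp, −0.12 under quantile normalization and −0.16 under median scaling between the precursors. For BAX probe b with hsa-miR-214-3p it was −0.13 under normexp and under median scaling and −0.093 to 0.16 without 1 array, and for BCL2L1 with hsa-miR-214-3p −0.095 to 0.034 without 1 array. Median scaling moved the median of all tested probes to −0.34 with hsa-miR-205-5p, −0.17 with hsa-miR-214-3p and −0.13 between the precursors. A block for slide was not run, since all arrays lie on 1 slide. Signal over background limits dim probes such as those of BMF and MCL1 with hsa-miR-205-5p and that of BCL2.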
